A study of Mus musculus with 18 samples.

Results

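The ETS family is a group of transcription factors that share the ETS domain, a winged helix-turn-helix fold that binds DNA around a GGAA core. The 10 genes described here, *Ets1*, *Ets2*, *Fli1*, *Spi1*, *Elf1*, *Elf2*, *Elf4*, *Etv6*, *Gabpa* and *Elk3*, were taken by name from the 16545 genes of the expression table, by a list made with earlier results of these data known and with no threshold on a measured value. The table holds 25 ETS genes in all, so another 15 were measured beside these.

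The study examined what the zinc-finger protein ZBTB24 does within B cells. The libraries described here follow B cells with and without it in culture with lipopolysaccharide (LPS), a bacterial cell wall component sensed through TLR4. Total B cells were purified from the spleens of control (CON) mice, which carry a Cre allele active in B cells and intact *Zbtb24*, and of *Zbtb24* B-CKO (BKO) mice, which carry the same Cre allele and loxp sites around the coding start of both *Zbtb24* copies. All mice were on the C57BL/6 background, and the Cre allele is shared by both genotypes. RNA was sequenced at day 0, day 1 and day 2 of LPS culture, with 3 libraries per genotype and day, 1 mouse per replicate, and 18 libraries in all. Whether the 3 days of a replicate number came from the same mouse is not given in the sources used here. No culture without LPS was sequenced at day 1 or day 2, so LPS and time in culture cannot be told apart.

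In lymphocytes, ETS factors act in partly overlapping sets: *Spi1* encodes PU.1, which directs B cell and myeloid development together with IRF4 or IRF8, ETS1 restrains the step from activated B cell to plasma cell, and FLI1 acts in early blood and B cell development. Others are more general. GABPA is the DNA-binding subunit of GABP, which drives nuclear genes for mitochondrial proteins, ELK3 binds with SRF at immediate early genes, and ETV6 is a repressor.

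Values are FPKM, that is, fragment numbers scaled to the length of a transcript and to the size of its library, so that genes can be ordered by level. Since each library is scaled to its own total, a lower value is a smaller share of the RNA, and fewer cells of a type and less RNA per cell cannot be told apart. The targeted gene was lower in the deleted mice, with *Zbtb24* at 37.1 to 49.6 FPKM in CON and 10.5 to 14.3 FPKM in BKO at day 0, and at 13.4 to 18.8 against 9.23 to 11.7 FPKM at the later days. The 5 B cell markers *Cd79a*, *Cd79b*, *Ms4a1*, *Cd22* and *Pax5* summed to 3386 to 4614 FPKM at day 0 and 1883 to 2467 FPKM later, 7 T cell markers other than *Lck* to 5.46 to 10.6 FPKM at day 0 and 0.58 to 1.96 FPKM later, and the 8 myeloid markers to 3.17 to 10.01 FPKM. Day 0 libraries spread most, with a median SD of 0.169 (log2) over genes in CON at day 0 against 0.0563 at day 1.

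All 10 genes were expressed in every library, and their order changed with LPS. At day 0 *Ets1* stood first at 305.6 ± 93.7 FPKM in CON and 286.6 ± 52.3 FPKM in BKO (SD, n = 3), which was 3.52 and 3.42 times the level of *Elf1*, the next gene. *Elf1*, *Spi1*, *Fli1* and *Ets2* followed at means of 86.8 to 58.4 FPKM in CON, each overlapping the next, and *Etv6* was last at 8.14 ± 1.18 FPKM. At day 1 *Spi1*, *Ets1* and *Elf1* had CON means of 55.6, 54.8 and 53.9 FPKM, and neighbours among them overlapped. In BKO at day 1, *Ets1* was at 47.2 ± 1.32 FPKM, and its libraries lay below all of those of *Elf1* at 51.0 FPKM. By day 2 *Ets1* was again first of the 10 genes in both genotypes, at 73.8 and 70.9 FPKM. *Ets2* was the lowest of the 10 genes at both later days.

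The summed level of the 10 genes was 602 to 821 FPKM in the CON libraries and 602 to 722 FPKM in the BKO libraries at day 0. It lay between 278 and 288 FPKM in CON and between 263 and 266 FPKM in BKO at day 1. *Ets1* made up 39.1% to 50.2% of this sum in CON at day 0 and 19.1% to 19.5% at day 1.

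**Figure D1:**
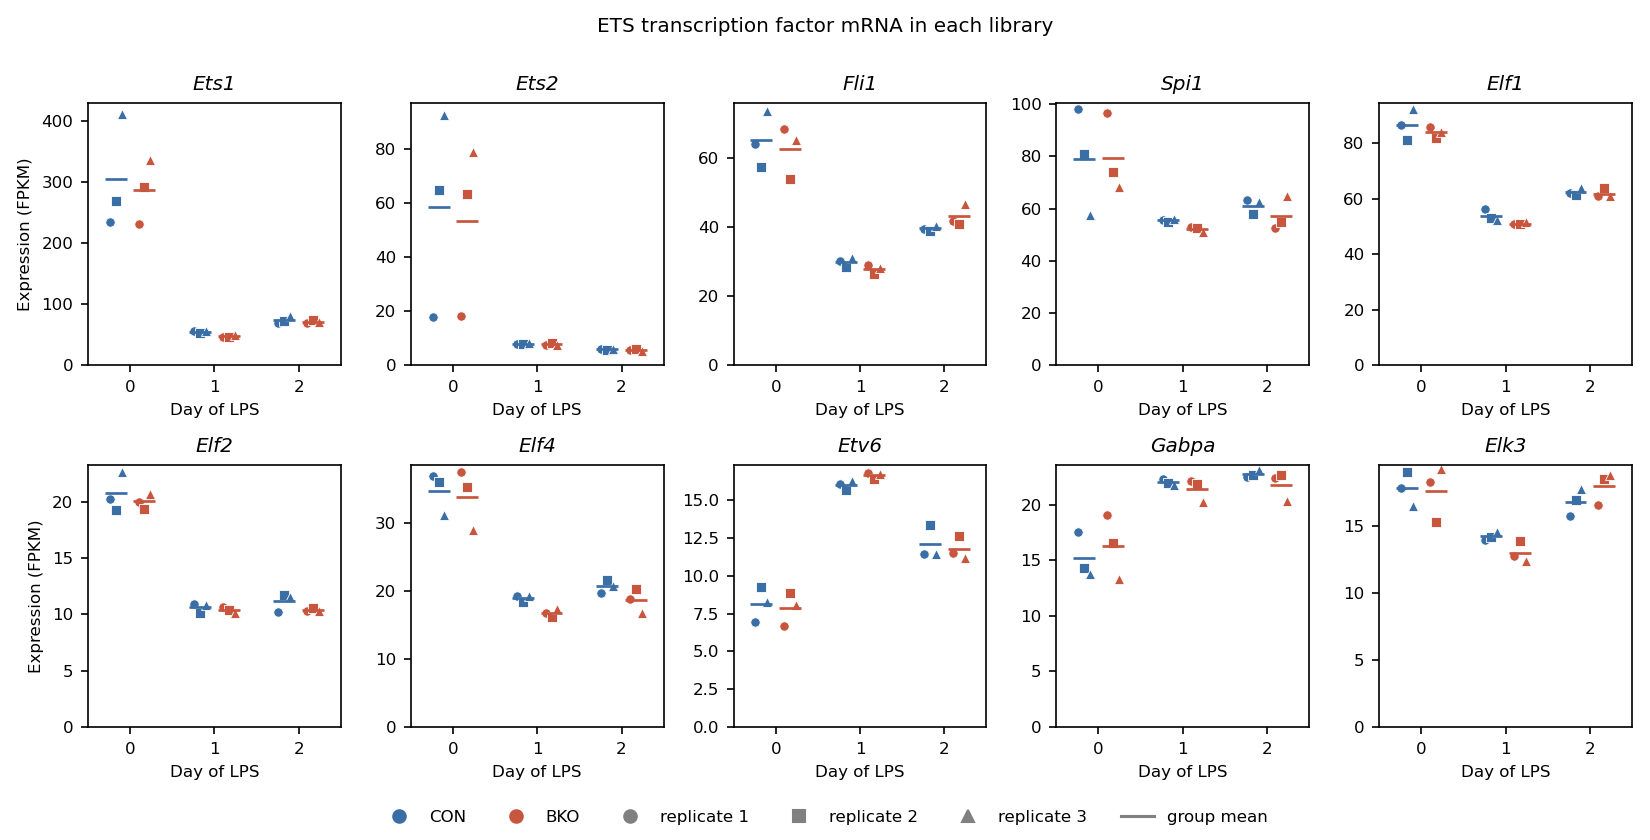
FPKM of the 10 ETS genes (linear axes from 0) by day of LPS, with CON in blue and BKO in red, a symbol for each replicate number and a line at each group mean. *Ets1* and *Ets2* fell most from day 0, *Etv6* and *Gabpa* are higher at day 1, and the day 0 libraries spread widest.

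Between day 0 and day 1, 7 of the 10 genes fell and 2 rose in CON, and 8 fell and 2 rose in BKO. The changes were tested with limma on log2(FPKM + 1) over all genes, with a threshold of 0.05 on the adjusted p. Over all 15531 genes tested in CON, 26.7% rose and 30.7% fell, and in BKO 27.5% rose and 32.3% fell. Where testing was limited to genes averaging 1 FPKM or more, as all 10 do, the shares were 38.9% and 36.5% in CON, and 40% and 38.5% in BKO. The median log2 change of the 10 genes was -0.75 in CON and -0.79 in BKO, and that of all genes tested was -0.02 in both. The changes are relative to the RNA of each library. Rescaling to TPM, which gives every library the same total, moved the median log2 change of expressed genes in CON from 0.02 to -0.14 at day 1 and from -0.01 to -0.21 at day 2, and shifted the 10 genes with it.

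By day 2, 6 of the 10 genes were lower and 2 higher than at day 0 in CON, beside 30.3% and 26.5% of all genes. In BKO 7 were lower and 2 higher, beside 30.7% and 27%. After rescaling to TPM, 8 were lower and 1 higher in CON and 7 lower and 0 higher in BKO at day 2, since *Etv6* lost its call in both genotypes (adjusted p = 0.0695 and 0.0686) and *Gabpa* in BKO (adjusted p = 0.271), while *Spi1* (adjusted p = 0.0314) and *Elk3* (adjusted p = 0.0264) gained calls in CON. At day 1 TPM gave 8 lower and 2 higher in CON and 8 lower and 1 higher in BKO. From day 1 to day 2, 5 rose and 2 fell in CON, where 20.1% of all genes rose and 24.8% fell. In BKO 4 rose and 2 fell, against 21.7% and 24% of all genes. TPM gave 4 higher and 2 lower in both genotypes.

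**Figure D2:**
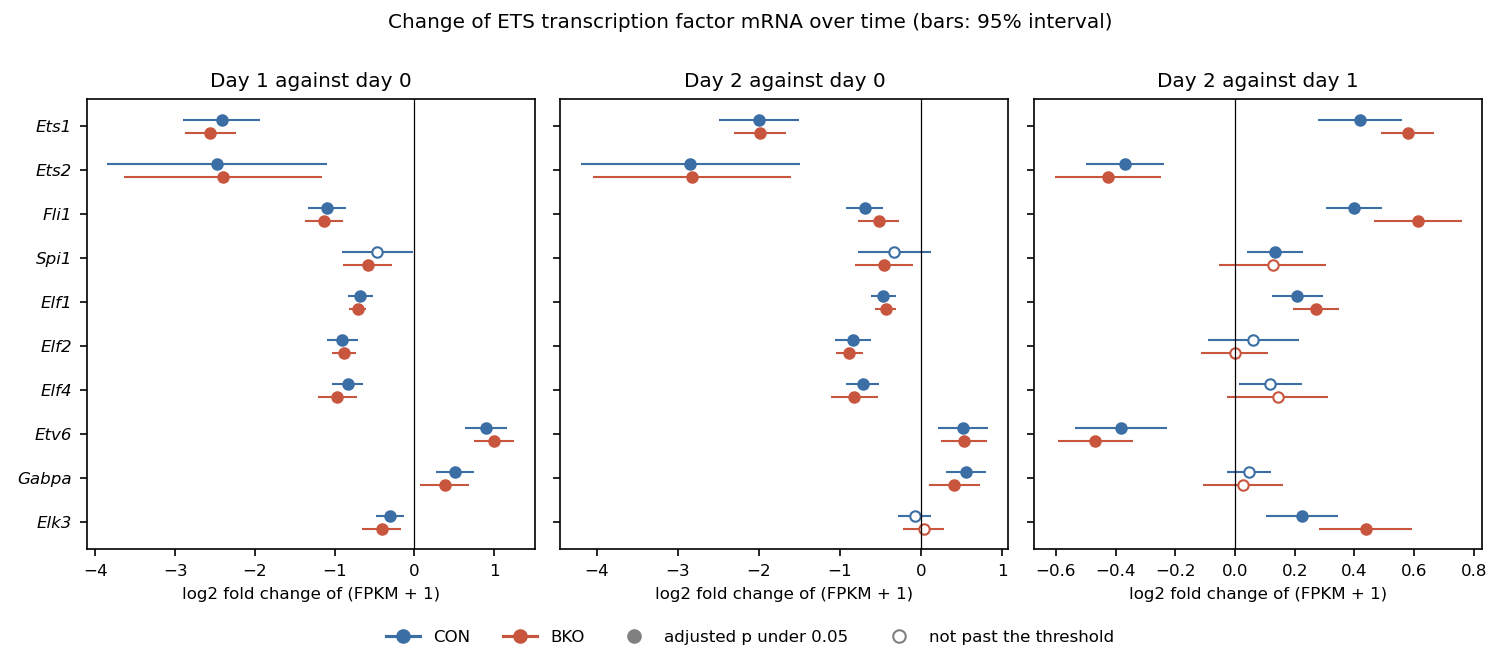
Log2 fold changes of FPKM + 1 (points) with 95% intervals (bars) for the 10 ETS genes in CON (blue) and BKO (red) between pairs of days, with filled points past the adjusted p of 0.05. The 2 genotypes lie close together in each panel, and *Ets2* has the widest intervals against day 0.

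Promoter windows are shown for *Ets2*, which had the lowest log2 change from day 0 to day 2 in both genotypes, and for *Etv6* and *Gabpa*, which rose. The windows run from 250 bases before to 50 bases after the RefSeq start, on GRCm38.p6 (mm10), 5′ to 3′ along the plus strand, with each GGAA or TTCC in capitals. *Ets2* is at chr16:95702157-95702456, *Etv6* at chr6:134035450-134035749 and *Gabpa* at chr16:84834874-84835173. For *Gabpa* the start used lies inside the gene's annotated span, downstream of its first base.
Ets2: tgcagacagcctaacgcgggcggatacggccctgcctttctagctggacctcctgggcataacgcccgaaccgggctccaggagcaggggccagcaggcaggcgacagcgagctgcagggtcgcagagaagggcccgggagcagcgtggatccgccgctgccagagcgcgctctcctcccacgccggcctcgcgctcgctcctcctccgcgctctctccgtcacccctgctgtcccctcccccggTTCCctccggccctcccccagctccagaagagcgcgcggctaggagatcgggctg
Etv6: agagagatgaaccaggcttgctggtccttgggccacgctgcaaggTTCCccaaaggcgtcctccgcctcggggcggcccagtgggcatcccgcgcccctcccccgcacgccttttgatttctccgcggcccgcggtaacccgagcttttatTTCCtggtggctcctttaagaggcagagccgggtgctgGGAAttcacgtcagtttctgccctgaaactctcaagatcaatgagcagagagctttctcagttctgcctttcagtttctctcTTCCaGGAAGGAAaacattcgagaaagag
Gabpa: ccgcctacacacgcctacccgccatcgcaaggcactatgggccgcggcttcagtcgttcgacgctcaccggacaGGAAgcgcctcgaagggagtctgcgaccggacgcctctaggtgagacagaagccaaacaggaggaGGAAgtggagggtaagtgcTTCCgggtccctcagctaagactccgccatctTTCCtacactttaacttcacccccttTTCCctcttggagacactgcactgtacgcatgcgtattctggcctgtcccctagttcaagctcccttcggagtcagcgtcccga
The ETS core, GGAA or its complement TTCC, was found once in the window of *Ets2*, 6 times in that of *Etv6* and 5 times in that of *Gabpa*. Such short letters are common, and 96.0% of 32851 promoter windows of this length hold them, with a median of 3. Windows were at hand for 7 of the 10 genes, as 10 windows, and all 10 held the core. The longer CCGGAAGT or ACTTCCGG, which contains the core, was in 0 of the 10 and in 3.9% of all windows. *Ets1*, *Fli1* and *Spi1* had no window in the RefSeq table. A match of letters is no evidence of binding.

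*Ets1* (chr9:32636241-32757820) lost most of its message at day 1. In CON it was at 235, 269 and 412 FPKM in replicates 1 to 3 at day 0, at 55.4, 53.1 and 55.9 FPKM at day 1, and at 68.2, 73.0 and 80.2 FPKM at day 2. In BKO it was at 232, 292 and 336 FPKM, then at 46.3, 46.6 and 48.7 FPKM, and then at 69.6, 73.3 and 69.9 FPKM. In both genotypes every day 0 library lay above every later one, and every day 2 library above every day 1 library. The fall to day 1 was -2.42 ± 0.20 (log2 fold change ± SE, adjusted p = 0.000119) in CON and -2.56 ± 0.13 (adjusted p = 1.28e-05) in BKO, or to 17.9% and 16.5% of the day 0 mean. *Ets1* then rose to day 2 by 0.42 ± 0.06 in CON (adjusted p = 0.00143) and by 0.58 ± 0.04 in BKO (adjusted p = 4.17e-05), which left it at 24.1% and 24.7% of its day 0 mean. In a single fit of all 18 libraries the CON rise did not pass (adjusted p = 0.0675). The genes whose log2(FPKM + 1) followed that of *Ets1* most closely over the 18 libraries, among 9995 genes searched, were *Klhl24* (r = 0.997), *Map3k1* (r = 0.996) and *Sun2* (r = 0.996), as a description of libraries that share the day effect.

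*Ets2* (chr16:95702407-95721049), the closest relative of *Ets1* and like it a target of MAP kinase, fell about as far to day 1 and further to day 2. At day 0 it was at 17.8, 64.7 and 92.7 FPKM in CON and at 18.3, 63.3 and 78.8 FPKM in BKO. At day 1 the values were 7.65, 7.66 and 8.0 FPKM in CON and 7.48, 8.29 and 7.55 FPKM in BKO, and at day 2 they were 5.78, 5.56 and 6.04 FPKM and 5.62, 5.91 and 5.07 FPKM. Replicate 1 stood far below the other two at day 0 in both genotypes, yet still above every later library. The fall to day 1 was -2.48 ± 0.57 in CON (adjusted p = 0.00990) and -2.40 ± 0.51 in BKO (adjusted p = 0.00670). Without replicate 1 of day 0 it was -3.16 in CON and -3.03 in BKO. With replicate number 2 left out of both days, the adjusted p was 0.120 in CON and 0.0917 in BKO, and with number 3 left out it was 0.0736 and 0.0740. *Ets2* fell further from day 1 to day 2, by -0.37 ± 0.05 in CON (adjusted p = 0.00172) and -0.43 ± 0.07 in BKO (adjusted p = 0.00339), while *Ets1* rose. In a single fit of all 18 libraries neither of these *Ets2* calls passed (adjusted p = 0.708 and 0.628). The genes most like it over the 18 libraries were *Ing3* (r = 0.996), *Zfp868* (r = 0.994) and *Irf4* (r = 0.994).

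The day 0 libraries carried high messages of immediate early genes, which are transcribed soon after a cell is stimulated. *Fos* was at 403 ± 52.2 FPKM in CON and 383 ± 34.1 FPKM in BKO at day 0, against 1.17 and 0.783 FPKM at day 1, and *Junb* was at 931 and 979 FPKM against 67.7 and 60.1 FPKM. These levels move with the day, as do the ETS genes, and their part in the changes from day 0 was not tested. Markers of other cells moved with the day too. All 8 T cell markers fell in CON between day 0 and day 1, where 30.7% of all genes fell and 26.7% rose. *Lck* was at 16.2 to 22.7 FPKM at day 0 and 8.11 to 13.3 FPKM later. The 4 NK cell markers summed to 2.78 to 4.22 FPKM at day 0 and at most 0.24 FPKM later. Of 6 erythroid markers, 4 fell and 1 rose in CON by day 1: *Hba-a1* went from 7.77 to 0.477 FPKM and *Hbb-bs* from 6.72 to 1.25 FPKM, whereas *Hbb-bt* went from 2.86 to 7.58 FPKM. Of 8 myeloid markers 2 fell and 1 rose: *Lyz2* went from 2.08 to 0.0667 FPKM and *Csf1r* from 0.520 to 0.0100 FPKM, and *Itgam* from 0.977 to 2.42 FPKM. Their part was not tested. The day 0 libraries also paired by replicate number. The correlation across genes of their deviations from the group means was 0.468 to 0.854 for CON and BKO libraries of the same number and had a mean of -0.342 for other numbers.

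**Figure D3:**
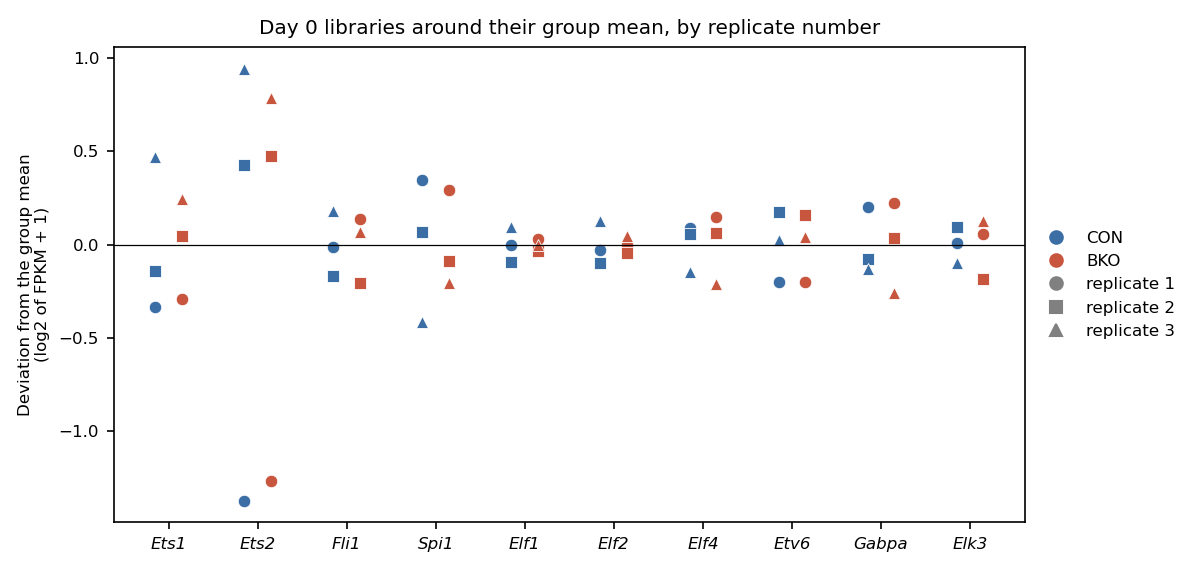
Deviation of each day 0 library from its group mean (log2 of FPKM + 1) for the 10 ETS genes, with colour for genotype and symbol for replicate number. Replicate 1 of both genotypes lies low for *Ets2*, *Ets1* and *Etv6* and high for *Spi1* and *Gabpa*.

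*Fli1* (chr9:32422204-32543432) lies next to *Ets1*, with a gap of 92808 bases that holds 0 protein-coding genes in the annotation. Its CON values were 64.3, 57.5 and 73.7 FPKM at day 0, 30.1, 28.5 and 31.1 FPKM at day 1 and 39.6, 39.0 and 40.5 FPKM at day 2. In BKO they were 68.6, 54.0 and 65.3 FPKM, then 29.2, 26.3 and 28.2 FPKM, and then 41.9, 41.0 and 46.7 FPKM. The days did not overlap in either genotype, and the order was that of *Ets1*: highest at day 0, lowest at day 1. The fall to day 1 was -1.09 ± 0.10 in CON (adjusted p = 0.000162) and -1.13 ± 0.10 in BKO (adjusted p = 0.000114). From day 1 to day 2 *Fli1* rose by 0.40 ± 0.04 in CON (adjusted p = 0.000310) and by 0.61 ± 0.06 in BKO (adjusted p = 0.000274).

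*Spi1* (chr2:91082374-91115759) changed less than *Ets1*, *Ets2* and *Fli1* and spread widely at day 0. At day 0 it was at 98.2, 80.9 and 57.5 FPKM in CON and at 96.7, 73.8 and 68.1 FPKM in BKO. At day 1 it was at 55.7, 54.9 and 56.2 FPKM in CON and at 52.8, 52.6 and 51.1 FPKM in BKO, and at day 2 at 63.2, 57.8 and 62.4 FPKM and at 52.4, 54.8 and 64.6 FPKM. Every day 0 library lay above every day 1 library in both genotypes, replicate 3 of CON only just, and day 2 overlapped day 0 in CON. The log2 difference between day 1 and day 0 was -0.46 ± 0.18 in CON, which did not pass the threshold (adjusted p = 0.0738), and -0.58 ± 0.13 in BKO, which did (adjusted p = 0.00739). The CON fall passed under 5 other settings, with a minimum mean of 1 FPKM without the replicate block (adjusted p = 0.0469) and with it (0.0345), TPM (0.0181), a single fit of all 18 libraries (0.0177) and group weights (0.0305). It did not pass with the replicate block alone (adjusted p = 0.0703), and the BKO call was lost without replicate number 2 (adjusted p = 0.0689). The CON difference was -0.29 (adjusted p = 0.147) without replicate 1 of day 0 and -0.67 (adjusted p = 0.00188) without replicate 3. From day 1 to day 2 *Spi1* rose by 0.13 ± 0.04 in CON (adjusted p = 0.0310), a call lost in 7 of 9 fits with a library or number left out and after rescaling to TPM (0.09, adjusted p = 0.0815). At day 2 in BKO it stood -0.46 ± 0.15 below day 0 (adjusted p = 0.0343), a call lost in 5 of 9 such fits and with the replicate block (adjusted p = 0.0727). The genes most like *Spi1* were *Cdc42se1* (r = 0.978), *Zbtb7b* (r = 0.972) and *Sirt7* (r = 0.971).

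The ELF genes fell in both genotypes. *Elf1* (chr14:79481174-79582491), an activator found across lymphocytes, went from 81.3 to 92.5 FPKM at day 0 to 52.3 to 56.2 FPKM at day 1 in CON, a log2 change of -0.68 ± 0.06 (adjusted p = 0.000219). *Elf2* (chr3:51252720-51340683), its close relative, went from 19.3 to 22.6 FPKM to 10.1 to 10.9 FPKM, a change of -0.90 ± 0.08 (adjusted p = 0.000178). *Elf4* (chrX:48411049-48463132), known for keeping T cells quiescent, went from 31.2 to 36.8 FPKM to 18.3 to 19.3 FPKM, a change of -0.83 ± 0.08 (adjusted p = 0.000209). Day 0 and day 1 did not overlap for any of the 3 genes, and their BKO changes were -0.71 ± 0.04, -0.88 ± 0.06 and -0.96 ± 0.10. Of these genes *Elf1* rose from day 1 to day 2, by 0.21 ± 0.04 in CON (adjusted p = 0.00336) and by 0.27 ± 0.03 in BKO (adjusted p = 0.000567). *Elf2* and *Elf4* did not pass the threshold in that interval. *Elf4* did so in CON with median ratio scaling (adjusted p = 0.0169) or without replicate 1 of day 2 (adjusted p = 0.0396), and in BKO without replicate 3 of day 2 (adjusted p = 0.0207) or number 3 (adjusted p = 0.0369).

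*Etv6* (chr6:134035700-134270158) moved against most of the others. In CON it was at 6.91, 9.26 and 8.25 FPKM at day 0, at 16.1, 15.7 and 16.2 FPKM at day 1 and at 11.4, 13.4 and 11.4 FPKM at day 2. In BKO it was at 6.66, 8.84 and 8.06 FPKM, then at 16.8, 16.4 and 16.7 FPKM, and then at 11.5, 12.6 and 11.2 FPKM. The days did not overlap, with a peak at day 1. *Etv6* rose to day 1 by 0.90 ± 0.11 in CON (adjusted p = 0.000594) and 1.00 ± 0.10 in BKO (adjusted p = 0.000244). It fell to day 2 by -0.38 ± 0.06 (adjusted p = 0.00311) and -0.47 ± 0.05 (adjusted p = 0.000477), and so turned at day 1, as *Ets1* and *Fli1* did in the other direction. The CON fall lost its call without replicate number 1 (adjusted p = 0.0505) or 3 (adjusted p = 0.0579).

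*Gabpa* (chr16:84834891-84863783) rose less than *Etv6* to day 1, with calls that several settings removed. It was at 17.6, 14.3 and 13.8 FPKM in CON at day 0, at 22.3, 22.0 and 21.8 FPKM at day 1 and at 22.5, 22.7 and 23.1 FPKM at day 2. The BKO values were 19.0, 16.6 and 13.3 FPKM, then 22.1, 21.8 and 20.2 FPKM, and then 22.4, 22.7 and 20.3 FPKM. Every later library lay above every day 0 library of its genotype. The log2 change to day 1 was 0.51 ± 0.10 in CON (adjusted p = 0.00493) and 0.38 ± 0.13 in BKO (adjusted p = 0.0392). In BKO this call was lost when any day 1 library or replicate 2 of day 0 was left out, with an adjusted p of up to 0.116, and without replicate number 2 (adjusted p = 0.197) or 3 (adjusted p = 0.0700). The CON call was lost without number 2 (adjusted p = 0.0778). At day 2 the change from day 0 was 0.56 ± 0.10 in CON (adjusted p = 0.00350) and 0.41 ± 0.13 in BKO (adjusted p = 0.0343). The day 2 call was lost in BKO in 6 of 9 fits with a library or number left out, with an adjusted p of up to 0.188, and after rescaling to TPM, and in CON without replicate number 2 (adjusted p = 0.0636). The BKO call at day 1 was also lost after rescaling to TPM, at 0.23 (adjusted p = 0.181), where the median expressed gene stood at -0.14.

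*Elk3* (chr10:93247415-93311159), a ternary complex factor, was lowest at day 1. It was at 17.9, 19.1 and 16.5 FPKM in CON at day 0, at 13.97, 14.2 and 14.6 FPKM at day 1 and at 15.8, 16.9 and 17.8 FPKM at day 2. In BKO it was at 18.3, 15.3 and 19.2 FPKM, then at 12.8, 13.9 and 12.4 FPKM, and then at 16.6, 18.5 and 18.8 FPKM. Day 1 was the lowest in both genotypes without overlap, and day 2 overlapped day 0. The fall to day 1 was -0.30 ± 0.07 in CON (adjusted p = 0.0128) and -0.41 ± 0.10 in BKO (adjusted p = 0.0122). The CON call was lost without replicate 1 (adjusted p = 0.0561) or replicate 2 (adjusted p = 0.0519) of day 1, and the BKO call without replicate 3 of day 1 (adjusted p = 0.0505). Leaving out a replicate number at both days lost the CON call for number 1 (adjusted p = 0.0786) and number 2 (adjusted p = 0.118) and the BKO call for number 1 (adjusted p = 0.0969) and number 3 (adjusted p = 0.107). The rise to day 2 was 0.22 ± 0.05 in CON (adjusted p = 0.0106) and 0.44 ± 0.07 in BKO (adjusted p = 0.00162). The CON rise lost its call without number 2 (adjusted p = 0.0956) or 3 (adjusted p = 0.0633) and in the single fit of all 18 libraries (adjusted p = 0.0517). Against day 0, day 2 in CON differed by -0.08 ± 0.08 (adjusted p = 0.481), and after rescaling to TPM by -0.28, which passed (adjusted p = 0.0264).

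Across the 18 libraries, log2(FPKM + 1) of the 8 genes other than *Etv6* and *Gabpa* ran together, with r between 0.321 and 0.977 over 28 pairs and a median of 0.80. Each of these 8 ran against *Etv6* and *Gabpa*, with r between -0.971 and -0.406 over 16 pairs. All pairs share the same libraries and the same day effect, so these r values describe the time course.

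Between genotypes, 0 of the 10 genes passed the threshold at any day. At day 0, 0 of the 10 reached an unadjusted p below 0.05, where 313 of all 15641 genes did. After adjustment 0% of all genes were called. The log2 differences of BKO against CON ran from -0.08 (*Ets2*, 95% interval -1.91 to 1.75) to 0.09 (*Gabpa*, -0.29 to 0.47). CON and BKO libraries overlapped for all 10 genes at day 0, where 1.92% of all genes lay higher in BKO and 1.94% lower without overlap. The day 0 numbers pair the samples, and the fit with the replicate number as a block also called 0 of the 10. The intervals given come from the fit without a block, so they hold the spread shared by libraries of the same number. For *Ets2* the values in replicates 1 to 3 were 17.8, 64.7 and 92.7 FPKM in CON and 18.3, 63.3 and 78.8 FPKM in BKO.

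At day 1 the libraries were tighter and 5 of the 10 genes lay lower in every BKO library than in every CON library, where 11.7% of all genes did. *Ets1* showed the largest difference, with 46.3 to 48.7 FPKM in BKO below 53.1 to 55.9 FPKM in CON, a log2 difference of -0.21 ± 0.03 (95% interval -0.29 to -0.14). *Elf4* followed at 16.2 to 17.4 FPKM against 18.3 to 19.3 FPKM, a difference of -0.17 ± 0.04. *Elk3*, *Spi1* and *Elf1* differed by -0.13, -0.09 and -0.08. *Etv6* was the reverse, with all BKO libraries at 16.4 to 16.8 FPKM above the CON libraries at 15.7 to 16.2 FPKM (0.05 ± 0.03), as 8.43% of all genes were. The remaining 4 overlapped. Cell markers also separated the genotypes at day 1. The 5 B cell markers summed to 1883 to 1943 FPKM in BKO and 2016 to 2174 FPKM in CON. Of the 8 T cell markers, *Lck* was at 8.24 to 9.31 FPKM in BKO and 11.2 to 13.3 FPKM in CON, whereas the other 7 summed to 1.44 to 1.96 FPKM in BKO and 0.95 to 1.37 FPKM in CON. Their part in the ETS differences was not tested.

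The 5 lower genes each reached an unadjusted p below 0.05, as did 2463 of all 15104 genes in either direction. After adjustment over those 15104 genes, 0 of the 10 passed and 0.0993% of all genes did. The adjusted p was 0.0688 for *Ets1*, 0.126 for *Elf4*, 0.150 for *Spi1*, 0.267 for *Elk3* and 0.292 for *Elf1*. The call of *Ets1* depended on the filter for low genes. When genes averaging less than 1 FPKM were left out, *Ets1* passed at an adjusted p of 0.0180, as did 3.05% of those genes in the lower direction. With the replicate block added to that filter, *Ets1* (adjusted p = 0.0161) and *Elf4* (adjusted p = 0.0401) passed, with 5.11% of genes lower. With the replicate block alone neither passed (adjusted p = 0.126 and 0.145), nor did they in a single fit of all 18 libraries (adjusted p = 1 for both). Leaving out a library or number gave *Ets1* a difference between -0.23 and -0.19, with adjusted p between 0.0951 and 0.395.

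At day 2, 0 of the 10 reached an unadjusted p below 0.05, where 1172 of all 15210 genes did. After adjustment 0.046% of all genes were called. The differences ran from -0.14 ± 0.07 (*Elf4*) to 0.12 ± 0.06 (*Fli1*). *Fli1* was higher in every BKO library, at 41.0 to 46.7 FPKM against 39.0 to 40.5 FPKM in CON, where 4.89% of all genes lay higher and 6.24% lower without overlap. *Ets1* no longer stood apart, at 69.6 to 73.3 FPKM in BKO and 68.2 to 80.2 FPKM in CON.

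**Figure D4:**
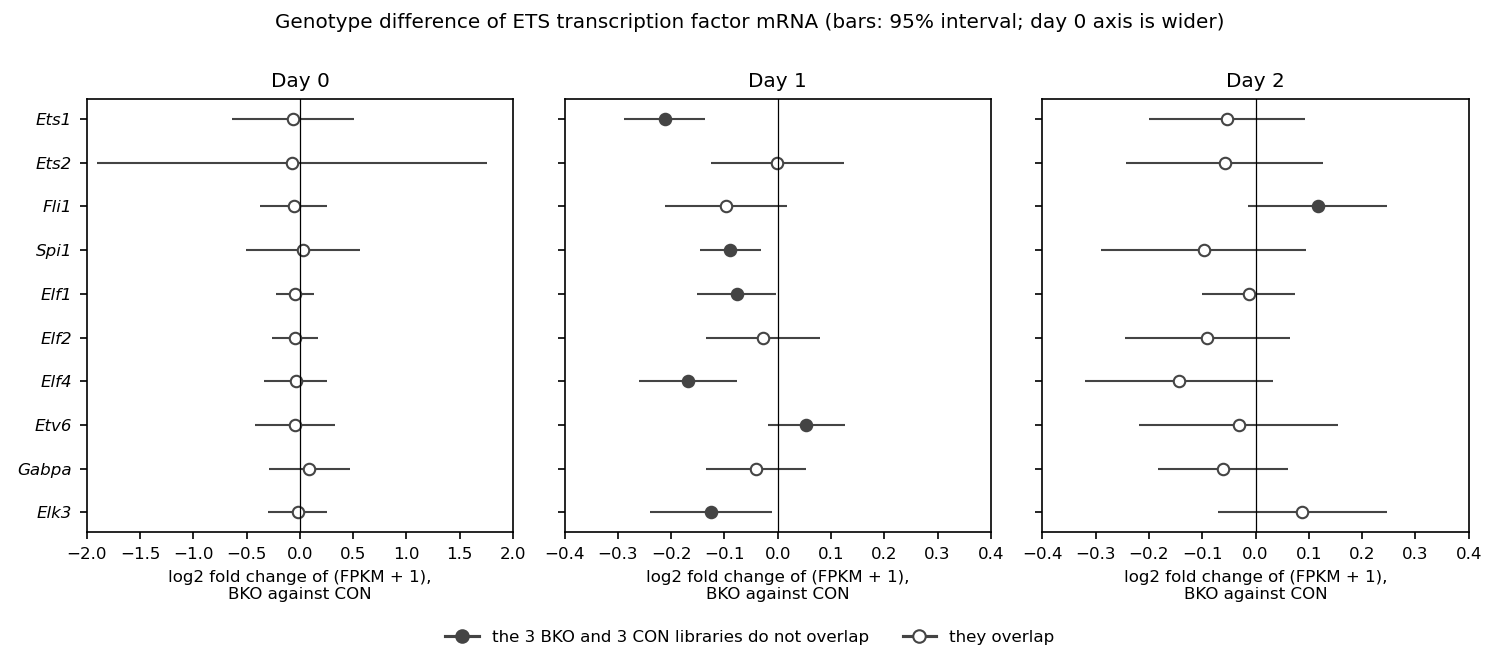
Log2 difference of FPKM + 1 between BKO and CON (points) with 95% intervals (bars) at each day, with filled points where the 3 BKO and 3 CON libraries do not overlap. At day 1 the filled points of *Ets1*, *Spi1*, *Elf1*, *Elf4* and *Elk3* lie below 0 and that of *Etv6* above it, while the wider axis of day 0 holds open points.

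Whether the time course differed between genotypes was tested as an interaction over 12 libraries. These fits had no block and gave all their libraries a shared spread for each gene, although day 0 spread most. With the replicate block 0 of the 10 passed as well. For the changes from day 0 to day 1 and from day 0 to day 2, 0 of the 10 genes passed. In each, 0% of all genes were called. An unadjusted p below 0.05 was reached by 0 of the 10, beside 467 of 16182 and 422 of 16257 genes. The genotype difference in the change to day 1 ran from -0.15 (*Ets1*, 95% interval -0.73 to 0.44) to 0.10 (*Etv6*, -0.24 to 0.43), and in the change to day 2 from -0.15 (*Gabpa*, -0.53 to 0.23) to 0.17 (*Fli1*, -0.15 to 0.50). From day 1 to day 2, *Fli1* and *Elk3* both rose more in BKO, by 0.21 ± 0.08 each, with unadjusted p of 0.0175 and 0.0283 and adjusted p of 0.610 and 0.646. Neither passed, and 0% of all genes did, while 1158 of 15844 genes had an unadjusted p below 0.05. The lowest value in that interval was that of *Etv6*, at -0.08 ± 0.08.

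Of the other 15 ETS genes in the table, 7 averaged 1 FPKM or more in some group, and 14 were tested between day 0 and day 1 in CON, where 6 fell and 0 rose, beside 30.7% and 26.7% of all genes. *Spib*, the closest relative of *Spi1*, was the highest of them at 287 ± 78.2 FPKM in CON at day 0 and 178 ± 1.46 FPKM at day 1 (-0.65 ± 0.20, adjusted p = 0.0294). At day 2 *Spib* stood above *Ets1*, at 186 against 73.8 FPKM in CON and 179 against 70.9 FPKM in BKO. *Elk4*, which like *Elk3* binds with SRF, fell from 31.5 ± 9.07 to 8.95 ± 0.286 FPKM (-1.67 ± 0.19, adjusted p = 0.000429). *Etv3* fell from 28.6 to 17.8 FPKM, *Etv5* from 2.26 to 0.953 FPKM and *Spic* from 1.46 to 0.160 FPKM, and *Erg*, near 0 throughout, was the sixth. *Elk1* at 9.47 and 9.79 FPKM and *Erf* at 8.66 and 8.65 FPKM did not pass the threshold. *Etv5* rose again to 3.05 FPKM at day 2 in CON (1.05 ± 0.08 from day 1, adjusted p = 0.000111).

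Genes that work with the ETS proteins were read from short lists. Of 8 partners, 2 rose and 5 fell from day 0 to day 1 in CON, with a median log2 change of -0.37. These and the following counts stand beside 26.7% of all genes that rose and 30.7% that fell, or 38.9% and 36.5% of those averaging 1 FPKM or more. *Irf4*, the partner of PU.1, fell from 214 ± 83.5 to 64.1 ± 1.87 FPKM (-1.64 ± 0.31, adjusted p = 0.00448), whereas *Irf8* was at 246 and 226 FPKM and did not pass. *Runx1*, which binds DNA together with ETS1, fell from 19.8 to 8.28 FPKM (-1.15 ± 0.12). *Pax5*, which recruits ETS1 to B cell promoters, fell by -0.69 ± 0.09, and *Gabpb2*, a partner subunit of GABPA, by -0.47 ± 0.09. *Gabpb1*, the other such subunit, rose by 0.24 ± 0.08 (adjusted p = 0.0478).

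Of 7 mitochondrial genes known as GABP targets, 5 rose and 0 fell in CON by day 1, where 26.7% and 30.7% of all genes did, with a median of 0.96. *Atp5b*, a subunit of ATP synthase, went from 300.0 ± 7.51 to 881 ± 20.6 FPKM (1.55 ± 0.05, adjusted p = 6.51e-06). *Cox5b*, a subunit of cytochrome c oxidase, rose by 1.09 ± 0.06, *Tfb1m*, a mitochondrial methyltransferase, by 1.03 ± 0.15, and *Sdhb*, of succinate dehydrogenase, by 0.96 ± 0.05. Of 9 targets of SRF and its ternary complex factors, 8 fell, against 30.7% of all genes, with a median of -3.00. *Fosb* fell from 466 to 0.397 FPKM (-8.23 ± 0.39), *Fos* by -7.55 ± 0.17, *Junb* by -3.73 ± 0.18 and *Egr3* by -3.35 ± 0.13.

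Of 8 B cell genes known as targets of PU.1 or other ETS factors, 1 rose and 5 fell in CON by day 1, where 26.7% and 30.7% of all genes did, with a median of -0.49. *Ciita*, the master regulator of MHC class II, went from 102 to 26.4 FPKM (-1.90 ± 0.10), *Cd79a*, of the B cell receptor, from 2073 to 727 FPKM (-1.50 ± 0.10), and *Bcl6*, a germinal centre repressor, from 39.0 to 14.2 FPKM (-1.32 ± 0.30). *Fcgr2b*, an inhibitory Fc receptor, rose from 79.9 to 202 FPKM (1.33 ± 0.11). Between genotypes at day 1, 0 of the 8 B cell genes, 0 of the 7 mitochondrial genes and 0 of the 8 partners passed. Over all genes 0.0993% did. An unadjusted p below 0.05 was reached by 4, 1 and 1 genes of these lists, and by 2463 of all 15104 genes. Of the 9 SRF targets 5 reached an unadjusted p below 0.05, with a median difference of -0.22 over the list. Among them *Mcl1*, which opposes cell death, passed after adjustment, with a difference of -0.25 ± 0.03 (adjusted p = 0.0421).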

How the data were processed

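RNA-seq libraries of splenic B cells (18, in 6 groups of 3) were analysed. The authors deposited FPKM with 2 decimals, made according to the methods with bowtie2, Cufflinks and RSEM on mm10, so that the depth in fragments is unknown. Of 51 low genes inspected, 27 had every value within 0.006 FPKM plus 3% of the value of a whole step, which placed the relative depth at 0.880 to 0.915 at day 0 and 1.01 to 1.07 later. The number of libraries limits the precision.

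Comparisons were made with limma 3.58.1 in R 4.3.3 (lmFit and eBayes with a mean-variance trend, two-sided) on log2(FPKM + 1), with only the compared groups in each fit, genes above 0 FPKM in any of those libraries, and Benjamini-Hochberg adjustment over all genes tested at 0.05. Intervals are 95% intervals. Folds on this scale understate changes of low genes. The fits were tested on simulated data with independent libraries, which did not include the spread shared by replicate number at day 0. Gene positions and promoter windows came from RefSeq on GRCm38.p6, and plots were made in matplotlib 3.10.9.

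All 10 members are named, with other ETS genes of at least 1 FPKM in any group and, from each list, up to 4 genes past the threshold with the largest change between day 0 and day 1 in CON. *Irf8* and *Gabpb1* were named after their values were seen. The 10 genes and the lists were chosen with earlier results of these data known. Same-numbered CON and BKO libraries deviated together at day 0 (r 0.468 to 0.854), so that the day 0 numbers pair the samples. At the later days r for the same number was lower. It was 0.117 to 0.183 between day 1 and day 2 of BKO and -0.066 to 0.148 between those of CON. Between CON and BKO it was 0.091 to 0.2 at day 1 and -0.038 to 0.23 at day 2. What a number stands for is not given in the sources used here. The fits reported had no block. Alternatives were a pseudocount of 0.1, a minimum mean of 1 FPKM, TPM, median ratio scaling, a replicate block, group weights, a single fit of all 18 libraries, and leaving out each library or replicate number. The replicate block with the minimum mean was added after seeing the data. A gene of the marker lists is not reported here.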

Additional observations from a re-analysis of the deposited data

How the results depend on the processing

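Over the 12 comparisons, 2035 of 2220 recomputed log2 changes of the 10 genes kept their direction and side of the threshold, 59 lost a call, 18 gained a call and 108 changed sign, and of the called changes 0 changed sign. A single fit of all 18 libraries, which gives the tight later days the spread of day 0, called 3 genes instead of 7 between day 1 and day 2 in CON, where *Ets1*, *Ets2*, *Spi1* and *Elk3* were lost. A minimum mean of 1 FPKM called 1 gene (*Ets1*) between genotypes at day 1, and with the replicate block 2 (*Ets1* and *Elf4*). The replicate block alone called 8 genes instead of 9 between day 0 and day 2 in BKO, where *Spi1* was lost (adjusted p = 0.0727), and it changed no other count of the 10 genes. Leaving out a library or a replicate number left between 6 and 10 genes called from day 0 to day 1 in CON and between 7 and 10 in BKO, between 6 and 9 from day 0 to day 2 in either genotype, between 4 and 7 from day 1 to day 2 in CON and between 6 and 7 in BKO, and 0 between genotypes.

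Small changes that had not passed the threshold changed sign. Rescaling to TPM gave *Elk3* from day 0 to day 2 in BKO -0.18 and *Gabpa* from day 1 to day 2 in BKO -0.026, and median ratio scaling gave *Elf2* in the latter interval 0.032 and *Ets2* between genotypes at day 1 0.0103. With libraries left out, *Elf2* from day 1 to day 2 ranged from -0.0034 to 0.14 in CON and from -0.020 to 0.024 in BKO, *Gabpa* in that interval in BKO from -0.012 to 0.073, and *Elk3* from day 0 to day 2 in BKO from -0.082 to 0.11. Between genotypes, *Ets2* ranged from -0.76 to 0.56 and *Gabpa* from -0.023 to 0.22 at day 0, and *Ets2* from -0.051 to 0.036 and *Elf2* from -0.06 to 0.0057 at day 1. For the genotype difference in the change to day 1, *Ets1* ranged from -0.38 to 0.021 and *Etv6* from -0.0017 to 0.20. The cause was not tested. At day 0 the genotype difference of *Ets2* was -0.76 without replicate 1 of CON and 0.56 without replicate 1 of BKO. Each of these fits leaves a library without its same-numbered partner. With 3 libraries in a group and the spread of day 0 in fits without a block, small genotype differences at day 0 could not be resolved.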
